A study of Homo sapiens with 27 samples.

Results

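The effect of deleting USB1 was measured across the mature miRNAs of K562, an established human chronic myelogenous leukaemia line. The comparison set 3 USB1 knockout (KO) libraries against 3 libraries of K562 control cells, and its members were the mature miRNA arms with a row in the tables of both groups. There were 1301 such miRNAs, of 1775 in either table and 2276 in any table of the 27 libraries of the series. They took at least 99.89% of the counts of each of the 6 libraries. The KO cells had been made with Cas9 and USB1 guide RNAs, selected with puromycin and expanded from single cells, and were screened for the loss of the protein by immunoblot. The paper's legends give 3 biological replicates for its K562 miRNA sequencing, but not whether the KO libraries came from 1 clone. What set those replicates apart is not given either, so variation between them may still be technical. The p-values reflect only how much the libraries fitted together vary. The control cells carried no KO, and neither group carried a hairpin RNA. Another pair of K562 groups, control and USB1 KO with a short hairpin RNA against PARN (shPARN), was fitted together with these 6 libraries. It shared their estimate of spread and their count filter, and only miRNAs also listed for that pair were tested. This pair and H1 human embryonic stem cells (hESCs), wild type or with a USB1 mutation, were used to see where the KO effect differed. Each of these groups had 3 libraries.

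A miRNA is cut from a hairpin precursor, and 1 arm of the duplex (the guide) is loaded onto an Argonaute protein, where its seed pairs with target mRNAs. The 3′ end remains within reach of enzymes: the poly(A) polymerases PAPD5 and PAPD7 add adenosines, and the exonucleases PARN and USB1 remove them. A miRNA's abundance therefore reflects transcription of its host, processing and the life of the mature strand, which small RNA counts do not separate. The counts do not measure the RNA of USB1, so the knockout itself was not checked here.

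A group of miRNAs from the imprinted 14q32 region (the DLK1-DIO3 domain) held most of the large decreases in KO cells. The names, positions and mature sequences of these arms are from RefSeq on GRCh38.p14, where 777 of the 881 tested miRNAs had a sequence. The 6 most abundant called arms of the region are shown because the decrease rests on them, with the seed (bases 2 to 8) in capitals; no seed is shared among them.
miR-381-3p: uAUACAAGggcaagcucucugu
miR-127-3p: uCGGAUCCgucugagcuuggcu
miR-493-3p: uGAAGGUCuacugugugccagg
miR-370-3p: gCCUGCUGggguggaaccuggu
miR-379-5p: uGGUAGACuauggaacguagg
miR-654-3p: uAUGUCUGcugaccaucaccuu
The arms that rose and were described in most detail follow. Both arms of miR-9 and of miR-652 rose, and miR-3689a-5p, miR-3689b-5p and miR-3689e have 1 mature sequence between them.
miR-9-5p: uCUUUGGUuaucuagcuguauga
miR-9-3p: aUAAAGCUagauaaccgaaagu
miR-652-5p: cAACCCUAggagagggugccauuca
miR-652-3p: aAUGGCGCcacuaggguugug
miR-584-5p: uUAUGGUUugccugggacugag
miR-1257: aGUGAAUGauggguucugacc
miR-3681-5p: uAGUGGAUgaugcacucugugc
miR-3689a-5p: uGUGAUAUcaugguuccuggga
The let-7 arms that fell, let-7a-5p and let-7f-5p, are shown because they have the same seed and differ elsewhere in the strand.
let-7a-5p: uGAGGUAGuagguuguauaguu
let-7f-5p: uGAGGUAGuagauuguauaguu

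Depth and identity were examined before the comparison. Control libraries held 6287087 to 10556927 miRNA counts. KO libraries 1 and 2 held 9472475 and 9794669, and KO library 3 held 1530929, so that 1 CPM (counts scaled to library size by TMM) stands for about 2 reads there. KO library 3 also stood apart in rank order, with Spearman correlations of 0.929 and 0.934 to the other KO libraries against 0.970 between those. All 9 blood markers of K562 had counts in all 6 libraries, led by miR-126-3p and miR-486-5p. The summed level ran from 36265 to 40634 CPM of library totals in control libraries and from 22035 to 27751 in KO libraries. Most of that difference lay in miR-126-3p, at 28040, 30106 and 27159 in control and 13318, 15567 and 16634 in KO libraries. On that scale miR-223-3p was also lower in every KO library, miR-451a and miR-181a-5p were higher, and the other markers overlapped. Markers of embryonic stem cells were near 0 except in control libraries 1 and 2, which held 14520 and 9724 reads of 5 miR-302 arms, against 2 in control library 3. The reads of control libraries 1 and 2 are 0.331% and 0.350% of the share those arms take in wild-type hESCs. Only 2 of the 5 arms were listed for KO cells, with 7 or fewer reads in each KO library. miR-302a-5p, miR-302c-3p and miR-302d-3p were not listed, so their counts in KO libraries 2 and 3 are not known. Fibroblast markers summed to 969 to 1617 CPM of library totals in 5 of the libraries and to 5874 in KO library 3, through miR-143-3p. The part of these reads in the results was not tested beyond the values given below, and in bulk RNA fewer cells of a type and less RNA per cell cannot be told apart.

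Among the miRNAs of K562 cells, the largest group that differed with USB1 loss was that of 14q32, which fell. With edgeR's quasi-likelihood test and a Benjamini-Hochberg adjusted p under 0.05 (a call, here and below), 45 of 881 tested miRNAs differed (5.11%), 17 higher (1.93%) and 28 lower (3.18%) in KO cells. At an unadjusted p under 0.05 there were 155 (17.6%). The median size of a called change was 2.06 on the log2 scale, against 0.37 over all tested miRNAs, and the median change of all tested miRNAs was -0.02. By direction, the median was 1.70 for the 17 higher calls, -3.04 for the 15 lower calls of 14q32 and -1.02 for the 13 lower calls from elsewhere, so that outside 14q32 the higher calls had the larger median. The 3 KO libraries lay wholly above or below the 3 control libraries for 44 of the 45 calls, and for 260 of all 881 (29.5%). The remaining 420 members were not tested: 221 had no row in a shPARN table and 199 had too few counts. Of these, 16 passed the count filter when the 6 libraries were fitted alone, and edgeR called 0 of them, with 0 at an unadjusted p under 0.05. In that fit of the 6 libraries, 39 of the 45 calls remained.

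**Figure D1:**
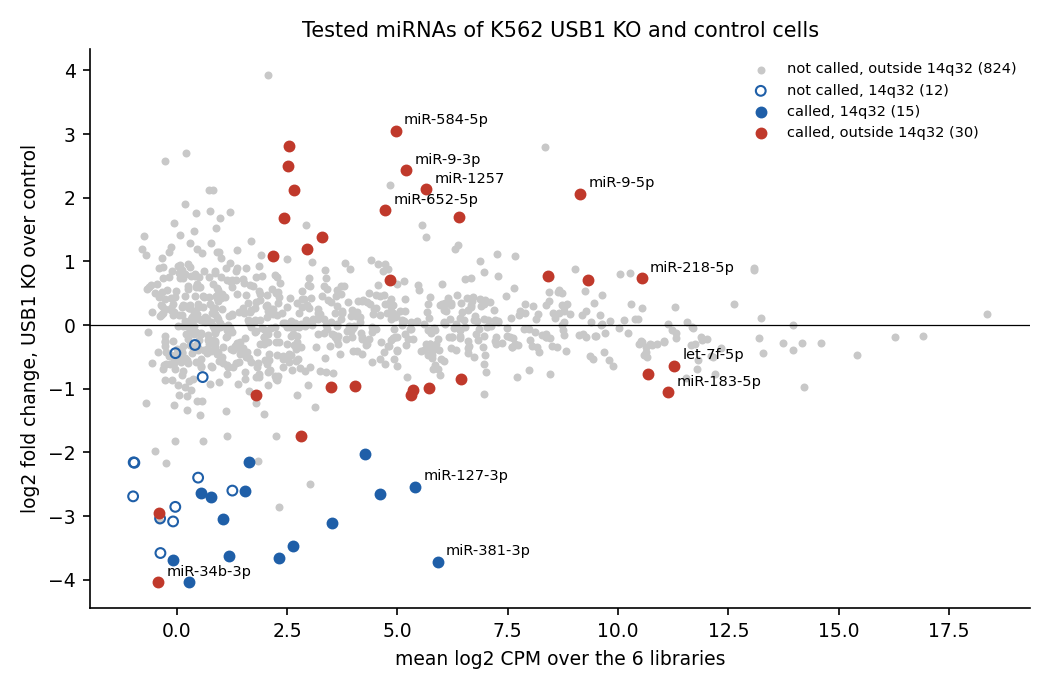
Each point is a miRNA tested between K562 USB1 KO and control cells (881), placed by its mean log2 CPM over the 6 libraries and its log2 fold change, KO over control. Blue marks the 14q32 miRNAs, all 27 of which lie below 0 (15 called, filled), and red marks the 30 calls from elsewhere in the genome.

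The number of calls depended on single libraries. It was 16 without control library 1, 27 without control library 2, 29 without KO library 1 and 19 without KO library 2. Without the shallow KO library 3 there were 34 calls, 13 higher and 21 lower. Without both control libraries that held miR-302 reads, which leaves 1 control whose spread is taken from the other groups, 8 calls remained. All 45 kept their direction, many at a like size (miR-584-5p was at 2.998 against 3.05 on the log2 scale, and miR-1257 at 2.198 against 2.14). The 8 were miR-381-3p, miR-379-5p, miR-654-3p, miR-134-5p and miR-34b-3p, which fell, and miR-9-5p, miR-9-3p and miR-551a, which rose. Called without any 1 of the 6 libraries were 14 miRNAs, 7 lower (miR-34b-3p, miR-381-3p, miR-134-5p, miR-654-3p, miR-379-5p, miR-493-3p and miR-127-3p) and 7 higher (miR-584-5p, miR-3689a-5p, miR-3689b-5p, miR-9-3p, miR-1257, miR-9-5p and miR-652-5p). For 39 of the 41 calls that were also in the wild-type hESC table, the hESC level scaled by the miR-302 share came to at most 3.49% of the level in control libraries 1 and 2. The exceptions were miR-335-3p, at 47.5% and 57.3%, and miR-135a-5p, at 17.6% and 9.11%.

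The 14q32 region carries many miRNA hairpins in long noncoding RNAs that are read from the maternal chromosome only, with MEG8 and MEG9 among them. Its tested arms span chr14:100869075-101065945. All 27 had a lower estimate in KO cells, as did 451 of all 881 tested miRNAs. Of the 27 arms, 15 were called lower and 0 higher, and the median log2 change was -2.69. The KO libraries lay below the control libraries for 24 of the 27, against 15.8% of all tested miRNAs. The count filter ran over all 12 K562 libraries. Several scarce arms, such as miR-134-5p at 0.836, 0.0985 and 0.971 CPM in KO libraries, passed it through the other groups. For those arms a lower estimate was in part set by the filter. The counts of 27, 24 and 15 and the median of -2.69 include them, and are descriptions. Of the 25 region members listed by name for this work, 14 were tested and 12 called lower. The calls reached from miR-493-5p at the start of the region to miR-409-3p near its end, and all but miR-654-3p lay in introns or exons of MIR493HG, MEG8 or MEG9.

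miR-381-3p, at chr14:101045968-101045989 in an intron of MEG9, was the most abundant arm of the region. Its level was 213.3, 261.3 and 182.1 CPM in the control libraries and 12.4, 18.2 and 19.9 CPM in the KO libraries. The groups were far apart, with a fitted difference of 13.1-fold, and the log2 change was -3.72 (SE 0.41, adjusted p = 0.000238 by edgeR). miR-127-3p, at chr14:100883035-100883056 and antisense to the coding gene RTL1, stood at 101, 103 and 98.3 CPM in control and at 13.7, 17.0 and 22.3 CPM in KO cells. Its log2 change was -2.54 (SE 0.38, adjusted p = 0.00161), and the control libraries lay within a few per cent of each other. miR-493-3p, at chr14:100869116-100869137 in an intron of MIR493HG, fell from 65.9, 56.8 and 60.7 CPM to 9.83, 10.7 and 8.25 CPM, a log2 change of -2.65 (SE 0.41, adjusted p = 0.00198). KO library 3 was the lowest of its group for this arm, though by little.

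miR-379-5p, at chr14:101022071-101022091 in an intron of MEG8, was at 38.8, 31.5 and 27.1 CPM in control and 3.24, 2.46 and 6.80 CPM in KO libraries. Its log2 change was -3.11 (SE 0.41, adjusted p = 0.000457). miR-654-3p, at chr14:101040269-101040290, was at 18.9, 21.6 and 16.6 CPM in control and 1.78, 1.08 and 2.91 CPM in KO libraries. The groups were far apart for both arms, and for miR-654-3p the log2 change was -3.47 (SE 0.41, adjusted p = 0.000238). miR-370-3p, at chr14:100911186-100911207 in introns of MEG8 and MIR493HG, was at 33.2, 39.3 and 43.0 CPM in control and at 6.48, 8.18 and 15.05 CPM in KO cells. KO library 3 was the highest of its group here, and the log2 change of -2.03 (SE 0.43, adjusted p = 0.0171) was not called without control library 1 or 3 or KO library 1 or 2, with adjusted p up to 0.0985.

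Lower arms of the region moved the same way but rest on few reads. miR-134-5p, known from neurons as a repressor of the kinase LIMK1, went from 8.46, 5.69 and 5.92 CPM to 0.836, 0.0985 and 0.971 CPM (log2 change -3.63, SE 0.53, adjusted p = 0.000763). miR-409-3p went from 12.7, 16.2 and 19.2 CPM to 0.627, 0.788 and 3.88 CPM (log2 change -3.67, SE 0.77, adjusted p = 0.0205). miR-758-3p had the largest estimate, -4.04 (SE 0.77, adjusted p = 0.00767), with control libraries at 2.39 to 5.15 CPM and KO libraries at 0 to 0.314 CPM. The call of miR-409-3p was lost without control library 1 or 3 or KO library 1 or 2 (adjusted p up to 0.123), and that of miR-758-3p without KO library 2 (0.0580). miR-136-3p, with 57 reads in control and 3 in KO libraries, gave a ratio of 14.6 (95% exact interval 4.74 to 72.7, which covers counting error only), and its call was lost without any 1 of the libraries (adjusted p up to 0.210). The other 5 calls, miR-494-3p, miR-323a-3p, miR-543, miR-411-5p and miR-493-5p, had log2 changes of -3.04 to -2.15, and each was lost without some library (adjusted p up to 0.158). The 3 arms whose libraries overlapped, miR-665, miR-127-5p and miR-410-5p, were among the least abundant and had log2 changes of -0.31, -0.82 and -0.44. Summed over the 27 arms, control libraries held 495 to 593 CPM and KO libraries 57.4, 67.3 and 95.1 CPM, or 10.5 to 17.4% of the control mean. A further 26 arms placed in the region by RefSeq had a row only in the control table, led by miR-889-3p with 26, 27 and 27 reads and miR-323b-3p with 35, 20 and 21, and 3 arms had a row only in the KO table, with 9, 2 and 1 reads in all. Of the 1775 miRNAs in either table, 284 had a row only in the control table and 190 only in the KO table. A row is absent when the first library of a table has no read, so the KO level of those 26 arms is 0 in library 1 and not known in libraries 2 and 3.

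**Figure D2:**
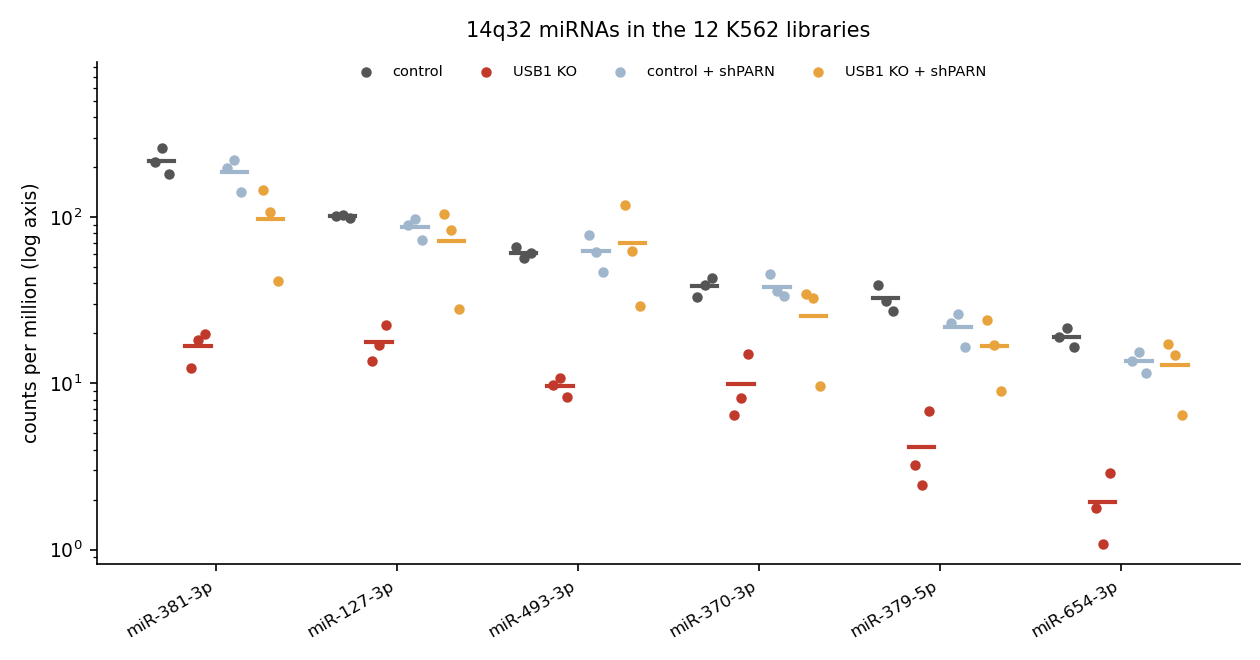
CPM (log axis) of 6 arms from 14q32 in the 12 K562 libraries, 3 per group. Points are libraries and bars group means; the USB1 KO libraries (red) lie below all control libraries (grey) for each arm, while the KO libraries with shPARN (orange) overlap or lie closer to the shPARN controls (light blue), the third being the lowest.

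Outside 14q32, 13 miRNAs were called lower, with a smaller median than in 14q32, and the range reached that of the region through the scarce miR-34b-3p and miR-139-3p. miR-34b-3p, from a p53-induced cluster on chromosome 11, had 49 reads over the control libraries and 2 over the KO libraries, a ratio of 18.8 (95% exact interval 4.93 to 159, counting error only; log2 change -4.04, SE 0.66, adjusted p = 0.00218). Its cluster neighbour miR-34c-5p was not called (-1.29, SE 0.36, adjusted p = 0.0538), although its KO libraries lay below the control libraries. Among the most abundant of the 13 was miR-183-5p, from a cluster known for sensory cells, at 4029, 2914 and 2962 CPM in control and 1846, 1756 and 1152 CPM in KO cells. Its log2 change was -1.06 (SE 0.22, adjusted p = 0.0147), which was lost without control library 1 (0.0693). The other guides of that cluster were not called, with log2 changes of -0.77 (SE 0.27, adjusted p = 0.129) for miR-182-5p and -0.20 (SE 0.23, adjusted p = 0.674) for miR-96-5p.

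The let-7 family, whose members share a seed and repress growth genes such as HMGA2 and RAS, had 2 calls. Of 9 tested members 2 were called lower and 0 higher, where 3.18% of all tested miRNAs were called lower and 1.93% higher. Of the 9 estimates 8 were negative, as were 451 of all 881. The median was -0.48 against -0.02 for all tested miRNAs. let-7a-5p was at 2102, 2316 and 2068 CPM in control and 1322, 1534 and 947 CPM in KO libraries (log2 change -0.77, SE 0.16, adjusted p = 0.0156). let-7f-5p was at 3193, 3163 and 2925 CPM in control and 2051, 2280 and 1631 CPM in KO libraries (-0.64, SE 0.15, adjusted p = 0.0222). Neither pair of groups overlapped. Both calls depended on control libraries: let-7a-5p was lost without control library 1 or 2 (adjusted p up to 0.0654), and let-7f-5p without any 1 control library or KO library 1 (up to 0.0840). Their sequences differ by few bases, so reads of one could have been counted as the other.

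Several of the other lower miRNAs sit in introns of coding genes. miR-139-5p, in PDE2A, went from 65.8, 49.7 and 61.2 CPM to 30.4, 30.7 and 25.2 CPM (log2 change -1.02, SE 0.28, adjusted p = 0.0484), while the opposite strand miR-139-3p was also called lower (-2.95, SE 0.75, adjusted p = 0.0352), from levels of 1.10 to 1.91 CPM in control cells. miR-152-3p, in COPZ2 and known to target DNMT1, went from 114, 121 and 115 CPM to 66.8, 64.3 and 62.1 CPM (-0.85, SE 0.23, adjusted p = 0.0469). The groups were tight and well apart, yet these 3 calls were lost without any 1 of the 6 libraries, at adjusted p up to 0.158 to 0.159. By contrast miR-148a-3p, which shares the seed of miR-152-3p and took 37.0% of all counts, was not called (0.17, SE 0.19, adjusted p = 0.674). miR-450b-5p, from an X-linked cluster with miR-424 and miR-503, went from 68.5, 68.7 and 86.4 CPM to 45.3, 38.5 and 28.6 CPM (-0.98, SE 0.20, adjusted p = 0.0135), and was not called without control library 3 or KO library 2 (up to 0.0628). It was the 1 call among 6 tested arms of that cluster.

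The remaining lower calls were small or uncertain. miR-6842-3p, miR-760 and miR-3934-5p had log2 changes of -1.10, -0.95 and -0.97 (adjusted p = 0.0222, 0.0231 and 0.0171), and each was lost without 4 of the 6 libraries. miR-7851-3p (-1.11, adjusted p = 0.0480) was lost without any 1 library. miR-335-3p, in the imprinted gene MEST, was the 1 call whose libraries overlapped, at 18.2, 15.7 and 5.45 CPM in control and 2.40, 3.65 and 6.80 CPM in KO cells (-1.74, SE 0.46, adjusted p = 0.0480). Control libraries 1 and 2, which held the miR-302 reads, were the high ones, and without both the log2 change was -0.49 (adjusted p = 0.840).

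The 17 miRNAs that rose came from many places in the genome and had 14 different seeds among the 16 with a sequence. miR-584-5p, at chr5:149062373-149062394 in an intron of SH3TC2, rose the most. Its level was 9.29, 11.95 and 10.99 CPM in the control libraries and 80.2, 89.1 and 98.5 CPM in the KO libraries, an 8.30-fold difference (log2 change 3.05, SE 0.41, adjusted p = 0.000729). The KO libraries all lay far above the control libraries. miR-1257, at chr20:61953621-61953641 in an exon of TAF4, rose from 26.2, 23.2 and 22.7 CPM to 134, 94.4 and 88.8 CPM (log2 change 2.14, SE 0.31, adjusted p = 0.000763).

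Both arms of miR-9, best known from the developing nervous system and made from 3 loci, rose in KO cells. miR-9-5p went from 339, 277 and 236 CPM to 1504, 1291 and 767 CPM (log2 change 2.06, SE 0.22, adjusted p = 0.000153). miR-9-3p went from 18.4, 19.2 and 10.9 CPM to 101, 92.4 and 66.5 CPM (2.43, SE 0.26, adjusted p = 0.000153). KO library 3 was the lowest of its group for both arms and still lay well above every control library. In the loci on chromosomes 1, 5 and 15 the arms are identical, so the counts do not say which locus rose.

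Both arms of miR-652, in an intron of TMEM164 on the X chromosome, also rose. The passenger arm miR-652-5p went from 14.72, 12.38 and 15.001 CPM to 44.5, 43.8 and 59.7 CPM (log2 change 1.80, SE 0.24, adjusted p = 0.000408). The guide miR-652-3p went from 239, 306 and 241 CPM to 424, 432 and 491 CPM (0.78, SE 0.17, adjusted p = 0.0156), and was not called without control library 1 or 3 or KO library 2 (adjusted p up to 0.0760). The passenger estimate was the larger, and the test of that difference is given with the arm ratios. miR-3689a-5p, miR-3689b-5p and miR-3689e rose by 2.81, 2.51 and 2.13 on the log2 scale (adjusted p = 0.000238, 0.00253 and 0.00913). They are encoded side by side on chromosome 9, and reads of their common sequence could have been split among them in any way, so these 3 calls are 1 measurement; miR-3689a-5p was at 1.85 to 2.39 CPM in control and 11.2 to 17.7 CPM in KO libraries.

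miR-218-5p, in introns of the axon guidance genes SLIT2 and SLIT3, was the most abundant miRNA to rise. It was at 1072, 1237 and 1151 CPM in control and 1796, 1989 and 1963 CPM in KO libraries (log2 change 0.73, SE 0.15, adjusted p = 0.0121). The call was lost without control library 1 or KO library 2 (adjusted p up to 0.0637), although the groups did not overlap. miR-551a, in an intron of MEGF6, went from 6.62, 8.54 and 3.34 CPM to 15.6, 16.8 and 15.5 CPM (1.38, SE 0.29, adjusted p = 0.0147), and was lost without the same libraries (up to 0.0615). miR-3681-5p went from 43.97, 42.98 and 51.88 CPM to 161, 144 and 148 CPM (1.70, SE 0.39, adjusted p = 0.0268), with no overlap, and was lost without any 1 library (up to 0.107).

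Among miRNAs of blood cells, few changes passed the test. miR-451a, the erythroid miRNA that is matured by Argonaute 2 instead of Dicer, was at 576, 460 and 473 CPM in control and 778, 834 and 842 CPM in KO libraries (log2 change 0.70, SE 0.18, adjusted p = 0.0427). It was the 1 call of 5 erythroid arms, and was lost without any 1 library (adjusted p up to 0.160). miR-144-5p from the same hairpin cluster stood at -0.15 on that scale (SE 0.19, adjusted p = 0.728), and miR-486-5p -0.36 (SE 0.15, adjusted p = 0.234). miR-181b-5p, of a family that acts in lymphoid development, rose from 21.1, 20.5 and 24.7 CPM to 35.13, 37.84 and 34.95 CPM (0.70, SE 0.16, adjusted p = 0.0216), a call lost without control library 1 or 2 or KO library 1 or 2 (up to 0.123). Its cluster partner miR-181a-5p had an estimate of 0.63 (SE 0.21, adjusted p = 0.127). miR-181d-5p, with the same seed, had one of -0.73 (SE 0.24, adjusted p = 0.110), with all KO libraries below the control libraries, and the median over the 5 tested members of the family list was -0.04. miR-126-3p, the most abundant blood marker, was at 25570, 26936 and 27395 CPM in control and 13190, 15026 and 12362 CPM in KO libraries. The groups lay apart, but the change of -0.98 (SE 0.37, adjusted p = 0.192) was not called.

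Of the 5 hematopoietic miRNAs that the study followed (miR-223-3p, miR-199a-3p, miR-142-5p and the seed relatives miR-125a-5p and miR-125b-5p), edgeR called 0, DESeq2 called 0, and 1 had an unadjusted p under 0.05. Their median log2 change was -0.14. The 1 was the myeloid miR-223-3p, at 1411, 1045 and 1132 CPM in control and 861, 820 and 624 CPM in KO libraries (-0.64, SE 0.21, adjusted p = 0.104). miR-125a-5p stood at 462, 406 and 535 CPM in control and 483, 437 and 332 CPM in KO libraries, with overlap (-0.16, SE 0.19, adjusted p = 0.685). The estimate was -0.14 for miR-142-5p (SE 0.18, adjusted p = 0.731), and for miR-199a-3p 0.06 (SE 0.27, adjusted p = 0.939). miR-125b-5p was scarce, at 5.02 to 20.4 CPM in KO cells, and its change of 0.42 had an SE of 0.72 (adjusted p = 0.80), so that a change of severalfold was not detectable here. Their opposite strands also gave 0 of 6 calls with edgeR and 0 with DESeq2, with 1 at an unadjusted p under 0.05.

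The last 3 calls among the risers were of scarce miRNAs. The muscle miRNA miR-499a-5p, in an intron of MYH7B, went from 4.78, 4.41 and 5.73 CPM to 9.51, 11.1 and 14.1 CPM (log2 change 1.19, adjusted p = 0.0231). miR-497-5p rose by 1.09 (adjusted p = 0.0484) from 2.39 to 3.70 CPM in control cells, as the 1 call of 6 tested miRNAs with the miR-15/16 seed. miR-135a-5p rose by 1.68 (adjusted p = 0.0301) from 1.56 to 4.204 CPM. The call of miR-497-5p was lost without any 1 library (adjusted p up to 0.189), that of miR-135a-5p without control library 1 or 2 or any 1 KO library (up to 0.121), and that of miR-499a-5p without control library 1 or 2 or KO library 2 or 3 (up to 0.103).

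**Figure D3:**
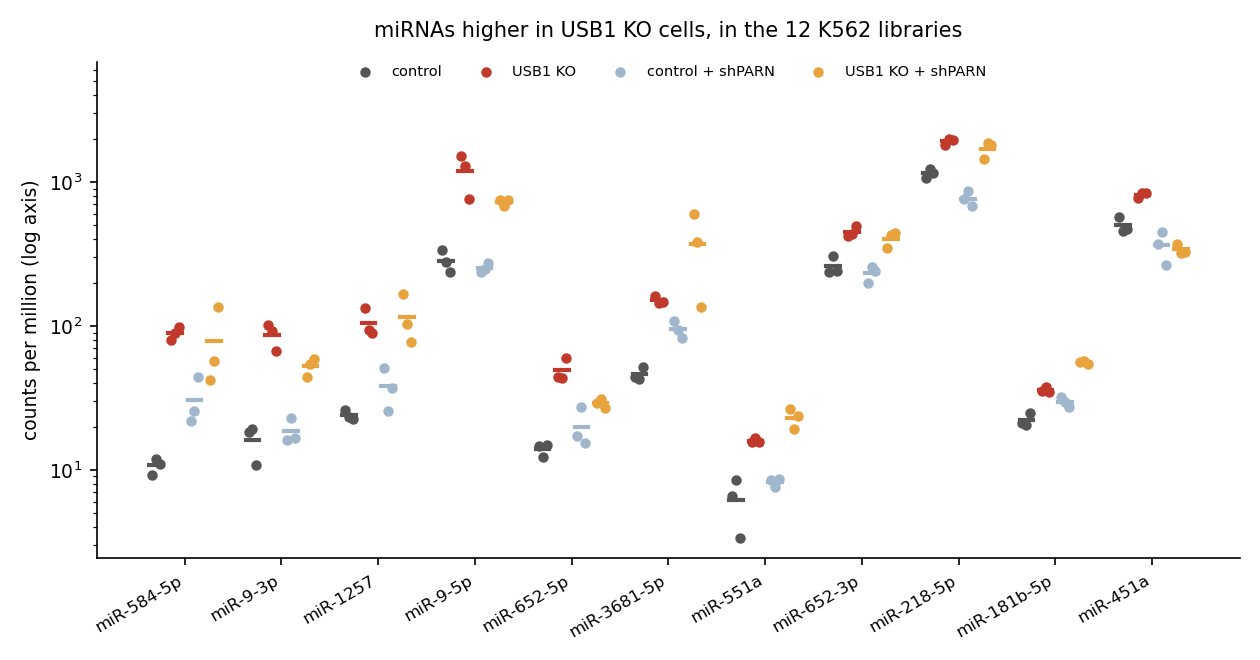
CPM (log axis) of the 11 miRNAs called higher in USB1 KO cells that had a mean of at least 3 log2 CPM, in the 12 K562 libraries. Points are libraries and bars group means; KO (red) lies above control (grey) throughout, and KO with shPARN (orange) above its control (light blue) for most, miR-451a being an exception.

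Most of the miRNA pool was not among the calls. The 10 most abundant miRNAs within each of the 6 libraries took 74.1 to 77.1% of its counts. Of the 10 with the highest mean level over the 6 libraries, led by miR-148a-3p, miR-21-5p and miR-92a-3p, edgeR and DESeq2 called 0, with 1 at an unadjusted p under 0.05. miR-21-5p had a log2 change of -0.17 (SE 0.21) and miR-92a-3p of -0.19 (SE 0.13). Of the 29 lists of families, clusters and cell types described here, 19 had 0 calls among 98 tested members by edgeR, with 19 members at an unadjusted p under 0.05 and 6 called by DESeq2. Over all 881 tested miRNAs, 155 (17.6%) had an unadjusted p under 0.05 and DESeq2 called 63. The lists without an edgeR call included miR-17-92 and its paralogs, miR-29, miR-30, the Drosha-independent miRNAs, mirtrons and the C19MC cluster. The arms of miR-221 and miR-222 had the highest median of these lists, 0.91 over 4 arms, of which DESeq2 called 3 and 3 had an unadjusted p under 0.05, with miR-221-3p at 320, 321 and 366 CPM in control and 547, 553 and 376 CPM in KO libraries (0.55, SE 0.18, adjusted p = 0.104).

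Guide and passenger arms were compared because tailing and trimming could act on a strand after it is chosen. Over 199 hairpins with both arms tested, the median log2 change was -0.03 for guides (the more abundant arm over the 12 libraries) and -0.03 for passengers. By this rule miR-223-5p and miR-142-3p counted as guides, while the study followed the other arm of both hairpins. Guides held 2 higher and 8 lower calls, and passengers 3 higher and 2 lower. The log2 ratio of guide to passenger, tested with limma, differed for 0 of 199 hairpins at an adjusted p under 0.05, and for 21 (10.6%) at an unadjusted p under 0.05. miR-194 came closest: its ratio was 1.21 higher in KO cells (SE 0.23, adjusted p = 0.0560), at 3.98 to 4.33 in control and 5.10 to 5.62 in KO libraries. For miR-652, where the passenger rose more than the guide, the log2 ratio differed by -1.02 (SE 0.26, adjusted p = 0.239), at 4.004 to 4.62 in control and 3.03 to 3.30 in KO libraries. The values did not overlap for either hairpin, and these differences are descriptions.

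Since USB1 acts on 3′ ends, the last base of the reference strand was tabulated, with no test. Among the 16 risers with a sequence, 7 ended in A (43.8%), where 20.2% of all tested miRNAs did; the 3 identical miR-3689 strands are 3 of these 7. Among the 27 lower calls with a sequence, 15 ended in U (55.6%, against 29.9% of all tested), and 3 in A. Most of these 15 lie in 14q32, which fell as a group, so they are not separate cases. They are miR-381-3p, miR-127-3p, miR-370-3p, miR-654-3p, miR-409-3p, miR-543, miR-323a-3p, miR-136-3p and miR-493-5p. Median log2 changes over all tested miRNAs were 0.06 for strands ending in A, -0.02 for C, -0.04 for G and -0.14 for U. Median length was 22 bases in the higher, lower and uncalled miRNAs alike. The deposited counts give no tail lengths, so added bases were not analysed here.

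The KO contrast was also measured with shPARN in both genotypes. The shPARN pair, which shares no library with the comparison above but was fitted with it, had 81 of 881 calls (9.19%), 44 higher (4.99%) and 37 lower (4.2%), and its groups did not overlap for 269 miRNAs (30.5%). Of the 17 risers, 15 had a positive estimate there and 11 were called higher, among them miR-9-5p (1.53, adjusted p = 0.00126), miR-218-5p (1.15, adjusted p = 0.000822) and miR-584-5p (1.36, adjusted p = 0.0434). miR-652-5p (0.55, adjusted p = 0.147), miR-451a (-0.09, adjusted p = 0.789) and miR-135a-5p (-0.57, adjusted p = 0.396) were not. Of the 13 lower calls outside 14q32, 12 had a negative estimate and 4 were called lower, with miR-450b-5p at -1.54 (adjusted p = 0.000822) and miR-139-5p at -1.61 (adjusted p = 0.00338). The difference of the 2 KO effects was not called by edgeR for any of these 30 miRNAs. Over all 881 tested miRNAs, 518 (58.8%) had an estimate of the same sign in both pairs.

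For 6 of the 27 arms of 14q32, all among the 15 called lower, the KO effect was called different with shPARN. The 15 were picked by the KO effect without shPARN, which enters this difference, so its direction was in part set by that choice. Of the 27 arms, edgeR called 0 in the shPARN pair, with 2 at an unadjusted p under 0.05 and 1 called by DESeq2, and the median log2 change was -0.30 against -2.69 without shPARN. The summed level of the 27 arms was 530, 525 and 372 CPM in shPARN control libraries and 521, 372 and 143 CPM in shPARN KO libraries. The KO libraries without shPARN, at 57.4 to 95.1 CPM, lay below all 3 of the latter, and the third shPARN KO library was the lowest of its group. The 6 differences, with shPARN minus without, were all positive, where over all tested miRNAs 1.82% were called, 1.36% higher and 0.454% lower: miR-654-3p (3.40, SE 0.53, adjusted p = 0.0164), miR-493-3p (2.82, SE 0.55, adjusted p = 0.0335), miR-381-3p (2.78, SE 0.53, adjusted p = 0.0335), miR-379-5p (2.72, SE 0.54, adjusted p = 0.0335), miR-323a-3p (3.36, SE 0.79) and miR-127-3p (2.27, SE 0.51), the last 2 at an adjusted p of 0.04997. These calls did not hold in most fits that left out 1 library: the number of calls over all miRNAs fell from 16 to 0 without control library 1 or 2, KO library 1 or 2, shPARN control library 1 or 3, or shPARN KO library 2. Whether the shPARN KO libraries came from the KO clone or clones used without shPARN is not given in the sources used here, so clone and hairpin cannot be told apart. In shPARN KO library 1 the 8 tested fibroblast and mesenchymal miRNAs summed to 15312 CPM, against 1185 to 2232 CPM in the other shPARN libraries. The part of this in the difference was not tested.

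**Figure D4:**
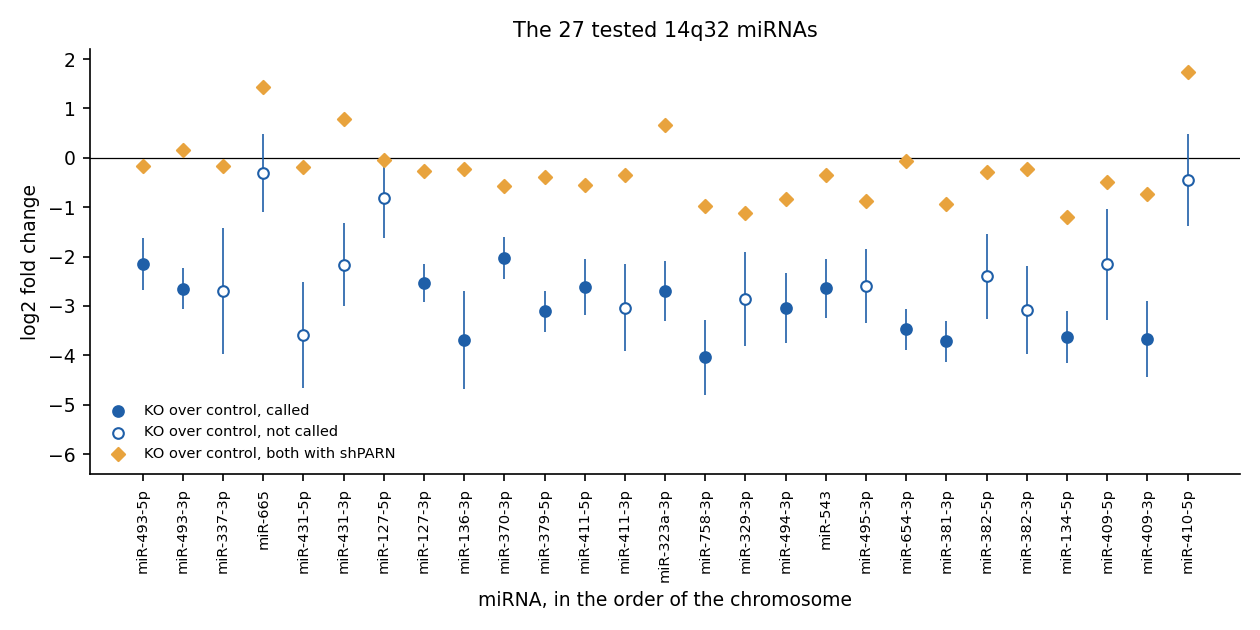
Log2 fold changes, KO over control, of the 27 tested 14q32 arms in chromosomal order, without shPARN (blue, filled if called, bars ± 1 SE) and with shPARN in both genotypes (orange). The blue points lie between -4.04 and -0.31, and 0 of the orange points is called.

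**Figure D5:**
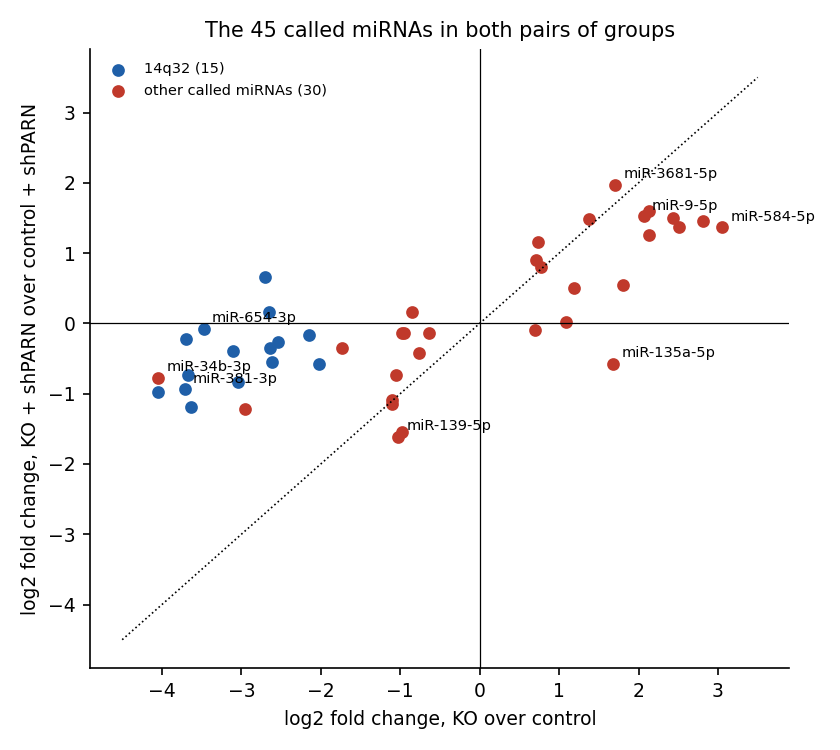
Log2 fold changes of the 45 miRNAs called between KO and control (x axis) against the same contrast with shPARN in both groups (y axis); the dotted line marks equal changes. Most risers lie near the line or between it and 0 (miR-135a-5p lies below 0), while the 15 arms from 14q32 (blue) lie above the line, nearer to 0 on the y axis.

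In hESCs with a USB1 mutation the same contrast was called different for some members of both sets. Of the 14 lower 14q32 arms that were tested in both lines, 2 had a negative estimate in hESCs, and the difference between lines was called for 9, all lower in K562, against 28 of 892 miRNAs overall (3.14%, with 0.785% higher and 2.35% lower). These arms, and the risers below, were picked by the K562 change that enters this difference. Its direction and its share of calls were in part set by that choice, and are descriptions. miR-381-3p had a log2 change of 1.32 in hESCs (adjusted p = 0.0366) and miR-493-3p of 1.48 (adjusted p = 0.0487), both higher in the mutant. Their means in wild-type hESCs were 3.85 and 0.372 CPM of library totals, so the level of miR-493-3p there rests on few reads. Of the 14 risers tested in both lines, 8 had a positive estimate in hESCs. Of the 788 tested miRNAs with an estimate in hESCs, 441 (55.96%) had the same sign in both lines, a share close to that of the risers. The line difference was called for the other 6 risers, miR-584-5p, miR-9-5p, miR-9-3p, miR-1257, miR-3681-5p and miR-181b-5p. Their hESC estimates were all negative, from -0.49 to -1.002, and not called. let-7a-5p, miR-450b-5p and miR-652-3p had the same sign in both lines, with no call in hESCs. The lines differ in cell type and in how USB1 was altered, and these cannot be told apart.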

How the data were processed

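The authors deposited raw counts for each mature miRNA entry. Per the labels and methods, the authors made small RNA libraries from 300 ng of total RNA with a Lexogen kit, sequenced them on a NovaSeq, trimmed reads with cutadapt 2.5, aligned them to miRBase with Bowtie2 2.2.9 without seed mismatches and counted with SAMtools 1.3.1. Columns of the control table have names that match hESC titles, so they were taken as the control group by the table named in the labels and numbered as in the column names. Each table lists only miRNAs with a count in its first column. Adaptor rows (0.0104 to 0.206% of counts in the 6 libraries) were removed, and 0 columns of another series were found.

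All 12 K562 libraries were fitted together with edgeR 4.0.16 in R 4.3.3 (TMM, filterByExpr with minimum count 10 and total 15, robust quasi-likelihood, no replicate term) on the 1080 miRNAs listed in all 4 K562 tables. The line comparison used 12 libraries of both lines. Arm ratios (pseudocount 0.5) were tested with limma 3.58.1. DESeq2 1.42.0 was an alternative. CPM are TMM-scaled. Scripts were tested on simulated data. Replicate numbers did not pair the control and KO libraries (correlations of deviations -0.26 to -0.02), but did pair the shPARN groups by the same measure (0.16 to 0.34).

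Named miRNAs were the study's 5 and their opposite strands, up to 15 calls per direction with a mean of at least 3 log2 CPM and separated groups, the 10 most abundant, up to 4 per list, the 6 hairpins with the smallest arm p, and neighbours within 10 kb. Other calls were named after their values were seen. The members and lists were chosen with earlier results of these data known.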

Additional observations from a re-analysis of the deposited data

Results flagged for a closer look

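The USB1 KO effect differed with shPARN for 16 miRNAs by the interaction term of edgeR. Among named miRNAs the log2 difference, with shPARN minus without, was 2.78 for miR-381-3p, 2.72 for miR-379-5p, 2.82 for miR-493-3p, 2.27 for miR-127-3p, 3.40 for miR-654-3p, 3.36 for miR-323a-3p and 0.93 for miR-151a-3p. The last is an abundant miRNA at 24621 to 32717 CPM in control and 21972 to 23063 CPM in KO libraries, and its difference had an adjusted p of 0.04997.

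The effect of USB1 loss differed between K562 cells and hESCs for 28 miRNAs. The log2 difference, K562 minus hESC, was positive for the risers miR-584-5p (3.60), miR-9-3p (2.93), miR-9-5p (2.91), miR-1257 (2.52), miR-3681-5p (2.57) and miR-181b-5p (1.59). It was negative for miR-381-3p (-5.15), miR-379-5p (-3.45), miR-493-3p (-4.23), miR-127-3p (-2.93), miR-370-3p (-2.59), miR-654-3p (-3.95), miR-134-5p (-3.81) and miR-494-3p (-3.55) of 14q32. It was also negative for miR-34b-3p (-3.53), miR-126-3p (-1.31) and miR-101-5p (-2.82), of which the last 2 were not called in K562 KO cells alone.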

How the results depend on the processing

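Against 45 calls between KO and control, leaving out 1 library gave 16 to 34, and leaving out both control libraries with miR-302 reads, an alternative chosen after seeing the data, gave 8. The other alternatives gave 30 to 63, with DESeq2 the highest (26 higher, 37 lower). The 81 calls of the shPARN pair became 129 with DESeq2 and 49 when its 6 libraries were fitted alone, and 38 to 92 without 1 library. The 16 differences between KO effects (12 higher, 4 lower) became 37 with DESeq2, 7 with library totals (4 higher, 3 lower), 7 with RLE size factors, 8 with a CPM filter, 10 with the replicate block, 0 to 27 without 1 library, and 0 without both miR-302 libraries. The 28 differences between lines (7 higher, 21 lower) became 48 with DESeq2, 13 with library totals (5 higher, 8 lower), 13 to 29 without 1 library and 13 without both. Arm ratios gave 2 calls with a pseudocount of 5, 1 with a CPM filter and 0 without any 1 library. The cause of these shifts was not tested, beyond fewer samples or features. The replicate block gave 45 calls between KO and control and 79 in the shPARN pair. The 15 lower calls of 14q32 became 4 without both miR-302 libraries and 7 to 19 under the other alternatives. Of 2290 values of 167 named miRNAs, 0 reversed a call, 151 lost one (134 of them without some library) and 26 gained one. At the depth of KO library 3, changes of miRNAs near 1 CPM rest on few reads.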

Other observations

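Some abundant miRNAs differed widely within a group and were chosen here after their values were seen. miR-7704 stood at 4208 CPM in KO library 3 and at 168 to 278 CPM in the other 5 libraries, so that its log2 change of 2.80 (SE 1.61, adjusted p = 0.387 by edgeR) rests on that library. miR-5787 was at 244 CPM there and at 16.3 to 50.0 CPM in the other 5 libraries, and miR-4516 at 297 CPM against 41.3 to 74.9 CPM. miR-143-3p had 5575 CPM of the library total in KO library 3 and 711 to 1472 in the other 5 libraries. miR-1291 was high in control library 1, at 61.0 CPM, and at 3.87 to 7.40 CPM in the other 5 libraries.

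Outside 14q32, median log2 changes by chromosome, over miRNAs with 1 locus, ran from -0.23 on chromosome 19 (67 miRNAs, 0 calls) to 0.46 on chromosome 21 (10 miRNAs, 0 calls), among chromosomes with at least 10 tested miRNAs. Chromosome 13, with 19 miRNAs and 0 calls by edgeR, had a median of 0.33. Chromosome 11 held 3 lower calls among 45 miRNAs, those of miR-34b-3p and both arms of miR-139.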
